A study of Saccharomyces cerevisiae with 10 samples.

Results

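The genes described here are 38 cyclins, cell cycle regulators and replication genes of the yeast Saccharomyces cerevisiae, out of 5654 named genes measured. They were chosen by name, with earlier results of these data known, and each was read by 1 probe set. Their function sorts them into 12 G1 genes, 16 S phase genes, 9 G2 and mitosis (G2/M) genes, and CDC28, which encodes the cyclin-dependent kinase that acts in every phase. Strain TMB3500, which the labels name without a genotype, was grown aerobically at 30 °C and pH 5 in a glucose batch of 0.7 L and then fed. The groups were 9 h and 18 h of a feed of spruce hydrolysate that had not been detoxified, 9 h and 18 h of a feed of pure sugars (glucose, mannose, xylose) that matched the hydrolysate in concentration, and the start of the feed (0 h). Each group had 2 biological replicates, which makes 10 Affymetrix 3′ arrays, and both feeds were raised from 0.04 to 0.1 L/h over 16 h.

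In budding yeast, commitment to division is made in late G1, when the G1 cyclin Cln3 with the kinase Cdc28 relieves the repressor Whi5 and lets the factors SBF (Swi4 with Swi6) and MBF (Mbp1 with Swi6) switch on the late G1 genes. Those include the cyclin genes CLN1, CLN2, PCL1, CLB5 and CLB6 and many genes of DNA synthesis, while Sic1 holds back the B-type cyclin kinases until it is destroyed. In G2 and mitosis the forkhead factor Fkh2 drives a cluster that includes CLB2, CDC5, CDC20 and SWI5, and Swi5 in turn switches on genes of mitotic exit and early G1 such as SIC1 and PCL9. All cultures were grown without any synchronisation named in the labels, and the arrays read bulk RNA. Fewer cells in a phase and less of a message per cell can therefore not be told apart.

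All levels are on the log2 scale, as deposited after the array summary method RMA. A gene counted as above background where it exceeded 95 percent of the 5028 probe sets for the fission yeast Schizosaccharomyces pombe on the same array (4.67 to 4.90). Of the 38 genes, 37 exceeded it on all 10 arrays, and PCL1 exceeded it on 8 arrays and was below it on both start arrays. Differences were tested with limma in 1 fit of all arrays, and a gene was called when its Benjamini-Hochberg adjusted p over all genes was under 0.05. Features of RNA and hybridization also differed between the groups. The 3′ minus 5′ difference of 8 control genes, a sign of RNA quality, was 0.960 ± 0.049 and 1.23 ± 0.052 on the log2 scale at 9 h and 18 h of hydrolysate, 0.669 ± 0.0030 and 0.599 ± 0.0077 at 9 h and 18 h of sugar, and 0.831 ± 0.075 at the start (SD, n = 2). The hybridization spike-ins averaged between 10.64 and 10.93 in the 4 fed groups and 11.87 at the start. The part of either in the results below was not tested, apart from a scaling to the spike-ins that was chosen after seeing the data.

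**Figure D1:**
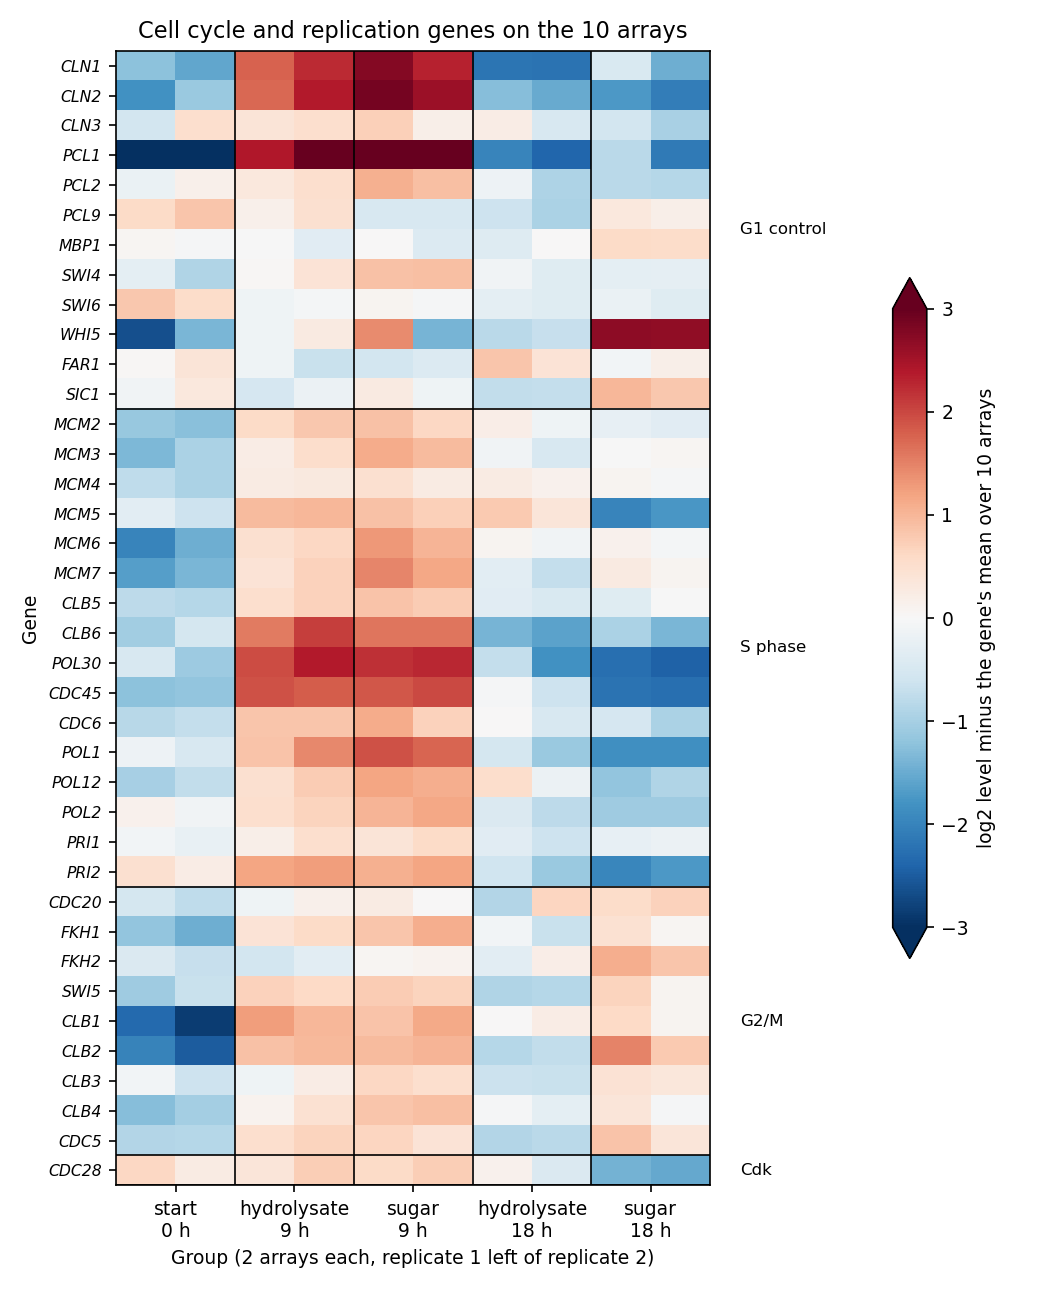
Log2 level of each of the 38 genes (rows, in blocks of G1, S, G2/M and the kinase gene) on each of the 10 arrays (columns), as the difference from that gene's mean over all arrays. S phase genes stand high in all 4 arrays of 9 h, whereas at 18 h the sugar arrays are low for several S phase genes (such as CDC45 at 5.66 and 5.61) but not for most G2/M genes. The colour scale ends at 3 log2 units.

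After 9 h of feeding, most of these genes were far above their level at the start in both feeds. Against the start, 27 rose and 2 fell in hydrolysate, where 62.7% of all genes were called, 33.6% higher and 29.1% lower. In sugar 30 rose and 3 fell, where 66.2% of all genes were called, 33.9% higher and 32.2% lower. The median difference of the 38 genes was 1.44 in hydrolysate and 1.60 in sugar, beside 0.03 and -0.00 over all genes. Both comparisons use the same 2 start arrays, so their values are given side by side.

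The G1 cyclin genes CLN1 and CLN2 and the PHO85 cyclin gene PCL1 had the largest G1 rises. CLN1, whose product drives the passage out of G1, read 7.70 and 7.37 at 0 h, 10.69 and 11.17 at 9 h and 6.73 and 6.71 at 18 h of hydrolysate. In sugar CLN1 read 11.67 and 11.24 at 9 h and 8.45 and 7.45 at 18 h. Both 9 h groups stood about 3 log2 units or more above the start without overlap. The rise at 9 h was 3.40 in hydrolysate and 3.92 in sugar for CLN1, and 3.51 and 4.18 for CLN2. PCL1, whose product binds the kinase Pho85 in late G1, read 9.70 and 10.29 at 9 h of hydrolysate and 11.29 and 11.23 at 9 h of sugar. It was not above background at the start (4.28 and 4.31). Set against the lowest signal above background there, it was at least 35.0-fold higher in hydrolysate and at least 84.0-fold higher in sugar (limma adjusted p 8.38e-06 and 3.99e-06, measured means 10.00, 11.26 and 4.30).

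Not all G1 genes rose. SWI6, the subunit shared by SBF and MBF, fell in hydrolysate (-0.77) and in sugar (-0.65), as did FAR1 (-0.61 and -0.69), an inhibitor of the Cln kinases known from the mating response. The early G1 gene PCL9 also fell in sugar (-1.19), and its difference in hydrolysate (-0.39) was not called. CLN3, the most upstream G1 cyclin gene, read 10.43 and 11.49 at 0 h, 11.37 and 11.50 at 9 h and 11.22 and 10.52 at 18 h of hydrolysate. In sugar CLN3 read 11.71 and 11.17 at 9 h and 10.43 and 10.02 at 18 h. Its 2 start arrays spanned most of that range, and its differences at 9 h (0.47 and 0.48) were not called. SIC1 (-0.44 and -0.03) and MBP1 (-0.18 and -0.21) were not called at 9 h in either feed.

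All 16 S phase genes rose in both feeds at 9 h, with a median of 1.51 in hydrolysate and 1.98 in sugar. CDC45, whose product joins the loaded Mcm proteins to make the working replicative helicase, read 6.63 and 6.69 at 0 h, 9.78 and 9.70 at 9 h and 7.84 and 7.25 at 18 h of hydrolysate. In sugar CDC45 read 9.73 and 9.85 at 9 h and 5.66 and 5.61 at 18 h. The 9 h values of both feeds lay close together, about 3 log2 units above the start. POL30, the gene of the sliding clamp PCNA, read 10.22 and 9.61 at 0 h, 12.66 and 13.07 at 9 h and 9.97 and 8.89 at 18 h of hydrolysate. In sugar POL30 read 12.88 and 12.96 at 9 h and 8.43 and 8.26 at 18 h. CDC45 rose by 3.08 in hydrolysate and 3.13 in sugar, and POL30 by 2.96 and 3.01. The 6 MCM2 to MCM7 genes, which encode the helicase core, rose by 1.13 (MCM4) to 2.27 (MCM6) in hydrolysate and by 1.22 (MCM4) to 2.87 (MCM6) in sugar. In the polymerase alpha and primase complex, the polymerase genes POL1 (1.45 in hydrolysate and 2.13 in sugar) and POL12 (1.50 and 2.00) and the primase genes PRI1 (0.48 and 0.63) and PRI2 (0.87 and 0.77) rose. POL2 rose by 0.57 and 1.08.

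The S phase cyclin gene CLB5 read 7.72 and 7.64 at 0 h, 8.99 and 9.19 at 9 h and 8.15 and 8.03 at 18 h of hydrolysate. In sugar CLB5 read 9.34 and 9.25 at 9 h and 8.13 and 8.49 at 18 h. Its rise was 1.41 in hydrolysate and 1.62 in sugar, smaller in size than that of its paralogue CLB6 (2.59 and 2.39).

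Of the 9 G2/M genes, 6 rose in hydrolysate and 8 in sugar at 9 h, and none was lower. CLB2, the main mitotic cyclin gene, read 6.61 and 6.11 at 0 h, 9.47 and 9.57 at 9 h and 7.75 and 7.87 at 18 h of hydrolysate. In sugar CLB2 read 9.56 and 9.64 at 9 h and 10.09 and 9.40 at 18 h. It rose by 3.16 in hydrolysate and 3.24 in sugar, close in size to its paralogue CLB1 (3.71 and 3.59). CDC20, which activates the anaphase-promoting complex, was not called in either feed (0.65 and 0.77), and CLB3 and FKH2 were called in sugar (0.92 and 0.65) but not in hydrolysate (0.40 and 0.13). Their feed difference at 9 h was not called either.

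Leaving out 1 array ended the 9 h calls of FAR1 (adjusted p up to 0.258), POL2, PRI1, SWI4 and WHI5 in hydrolysate and of FAR1, FKH2, PRI1 and WHI5 in sugar. With arrays scaled to the spike-ins, the median over all genes shifted to 1.26 in hydrolysate and 1.21 in sugar, SWI6 and FAR1 turned to 0.45 and 0.61 in hydrolysate and 0.57 and 0.53 in sugar, and PCL9 turned to 0.03 in sugar.

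Between the feeds at 9 h, few of these genes were called. With 2 arrays a group, a gene left uncalled is not shown to be equal in both feeds. PCL9 was called higher and MCM7 lower in hydrolysate than in sugar, 2 of 38 genes, where 9.67% of all genes were called, 5.77% higher and 3.91% lower. The median was -0.12 over the 38 genes and 0.03 over all genes. PCL9, an early G1 cyclin gene of the Pho85 kinase, read 9.82 and 10.08 at 0 h, 9.41 and 9.72 at 9 h and 8.62 and 8.30 at 18 h of hydrolysate. In sugar PCL9 read 8.76 and 8.78 at 9 h and 9.57 and 9.41 at 18 h. The difference at 9 h was 1.74-fold higher in hydrolysate (log2 0.80, SE 0.17, limma adjusted p = 0.0316). MCM7 was 1.69-fold lower (log2 -0.76, SE 0.20, limma adjusted p = 0.0469). The other 36 genes ran from -1.26 (PCL1, SE 0.38, limma adjusted p = 0.0654) to 0.21, and SEs over all 38 genes from 0.14 to 0.76. Both calls rest on few arrays. The PCL9 call ended without 1 array in 5 of the 10 settings that leave one out (adjusted p up to 0.150) and the MCM7 call in 7 of them (up to 0.236), and neither held with spike-in scaling (0.0680 and 0.0798).

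From 9 h to 18 h most of the set fell in both feeds. In hydrolysate 24 genes fell and 1 rose, where 35.2% of all genes were called, 17.1% lower and 18.0% higher. In sugar 25 fell and 5 rose, where 58.9% of all genes were called, 27.0% lower and 31.9% higher. The medians were -0.84 in hydrolysate and -1.03 in sugar, beside 0.06 and 0.08 over all genes. Of the genes that fell, 19 did so in both feeds, which is 79.2% of those in hydrolysate and 76.0% of those in sugar. The matching overlap over all genes was not counted, so these shares are not read as a trait of the set. In hydrolysate the 5 deepest falls were those of late G1 genes. These genes had differences of -4.87 and -5.41 for PCL1, -4.21 and -3.50 for CLN1, -3.44 and -4.62 for CLN2, -3.44 and -4.57 for POL30, and -3.32 and -2.76 for CLB6 in hydrolysate and in sugar. In sugar CDC45 (-4.15) and POL1 (-3.66) came after PCL1, CLN2 and POL30, ahead of CLN1.

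Several replication genes fell in both feeds and further in sugar. POL1, the catalytic subunit of polymerase alpha, read 8.92 and 8.59 at 0 h, 9.91 and 10.50 at 9 h and 8.53 and 7.95 at 18 h of hydrolysate. In sugar POL1 read 10.96 and 10.81 at 9 h and 7.23 and 7.22 at 18 h. PRI2, the large primase subunit, read 10.73 and 10.48 at 0 h, 11.45 and 11.51 at 9 h and 9.66 and 9.16 at 18 h of hydrolysate. Sugar arrays gave PRI2 levels of 11.32 and 11.44 at 9 h and 8.31 and 8.54 at 18 h. At 18 h both genes were below their start level on all 4 arrays and lowest in sugar. From 9 h to 18 h POL1 fell in hydrolysate (-1.97) and in sugar (-3.66), and so did PRI2 (-2.07 and -2.96). The test of these differences in fall is the same as that of the feed difference between times, given further on, and both genes passed it.

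CDC28 itself, which is usually transcribed at an even level through the cycle, read 10.82 and 10.45 at 0 h, 10.57 and 10.94 at 9 h and 10.35 and 9.78 at 18 h of hydrolysate. In sugar CDC28 read 10.79 and 10.94 at 9 h and 8.79 and 8.66 at 18 h. The 2 late sugar arrays were the lowest of all 10 by about 1 log2 unit. CDC28 fell in hydrolysate (-0.69) and in sugar (-2.14), and the first of these calls ended when 1 array was left out (adjusted p up to 0.238). The gene lies on chromosome II at 560078 to 560974, plus strand (YBR160W; coordinates of the authors' deposited table, the same in RefSeq R64).

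WHI5, which encodes the repressor of SBF, was highest at 18 h of sugar. It read 5.15 and 6.41 at 0 h, 7.64 and 8.05 at 9 h and 6.98 and 7.09 at 18 h of hydrolysate. In sugar WHI5 read 9.19 and 6.39 at 9 h and 10.46 and 10.44 at 18 h. The 9 h sugar arrays lay 2.80 apart, the widest gap between replicates for any of the 38 genes in any group, while the late sugar arrays were close together and the highest of all. Between 9 h and 18 h WHI5 rose by 2.66 in sugar, a call that ended without sugar replicate 1 at 18 h (limma adjusted p = 0.0608), and its difference in hydrolysate was -0.81 and not called. The gene lies on chromosome XV at 479533 to 480420, plus strand (YOR083W).

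The genes that rose in sugar from 9 h to 18 h were WHI5, FKH2 (0.88), SIC1 (0.82), MBP1 (0.76) and PCL9 (0.72), and in hydrolysate FAR1 (1.03). Among G2/M genes, 6 of 9 fell in hydrolysate (median -0.87), and in sugar 3 fell and 1 rose (median -0.18). Calls that ended without 1 array were those of CDC28, CDC6, CLB1, CLB3, FAR1, FKH1, MCM2, MCM3 and PCL2 in hydrolysate (adjusted p 0.0547 to 0.238) and of CLB1, CLB4, CLN3, FKH1, MBP1, PCL9, SIC1 and WHI5 in sugar (0.0502 to 0.246).

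**Figure D2:**
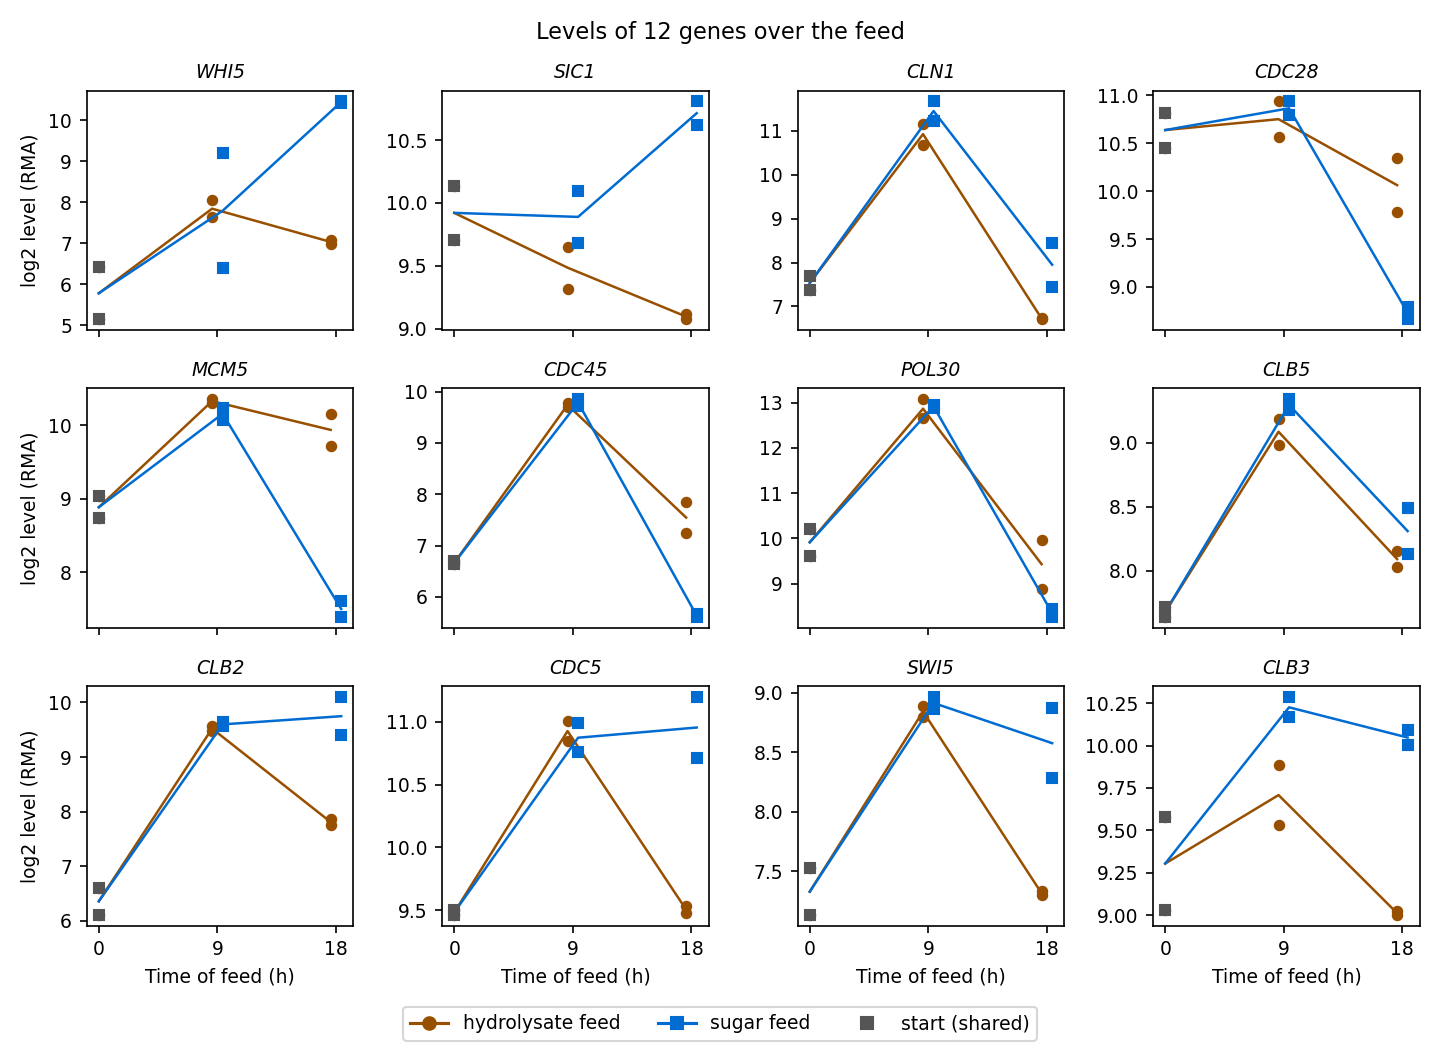
Log2 level of 12 genes against hours of feeding (0, 9 and 18 h) for each feed, with the start arrays shared by both lines and points for single arrays. CLN1 and POL30 peak at 9 h in both feeds, CDC28 and MCM5 drop at 18 h of sugar to 8.79 or less, and WHI5 reaches 10.46 and 10.44 there.

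At 18 h the feeds differed in 20 of the 38 genes. In hydrolysate relative to sugar 8 genes were higher and 12 lower, where 61.9% of all genes were called, 31.2% higher and 30.8% lower, so the share of these genes called (52.6%) is not above the background. The counts by cycle phase stand beside these shares of all genes. S phase genes were called higher in 7 cases and lower in 1 of 16 (median 0.40), G1 genes lower in 5 of 12 and higher in none (median -0.38), and G2/M genes lower in 6 of 9 and higher in none (median -1.02). The median over all genes was 0.01. The shares of G1 and of S phase genes called in either direction are not above the 61.9% of all genes. That of the G2/M genes is near it, though all of their calls were lower. These are counts, and no test was made over the groups of genes.

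Among the G1 genes, the repressor gene WHI5 and the inhibitor gene SIC1 were lower in hydrolysate, as were CLN1, PCL9 and MBP1. WHI5 had the largest difference of all 38 genes and was 10.7-fold lower in hydrolysate than in sugar (log2 -3.42, SE 0.76, limma adjusted p = 0.00457). SIC1, the inhibitor of the Clb kinases, read 9.71 and 10.13 at 0 h, 9.32 and 9.65 at 9 h and 9.08 and 9.12 at 18 h of hydrolysate. Sugar arrays gave SIC1 levels of 10.09 and 9.68 at 9 h and 10.81 and 10.62 at 18 h. The late sugar arrays were the highest and the late hydrolysate arrays the lowest of the 10. SIC1 was 3.07-fold lower in hydrolysate (log2 -1.62, SE 0.20, limma adjusted p = 0.000302).

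CLN1 was 2.34-fold lower (log2 -1.23, SE 0.32, limma adjusted p = 0.00987), with the 2 late sugar arrays 1.01 apart. Without the first of these the difference was -0.72 and not called (0.0649). PCL9 was 2.05-fold lower (log2 -1.03, SE 0.17, limma adjusted p = 0.00105), opposite in sign to its difference at 9 h. MBP1, the DNA-binding subunit of MBF, read 8.98 and 8.88 at 0 h, 8.91 and 8.59 at 9 h and 8.53 and 8.94 at 18 h of hydrolysate. In sugar MBP1 read 8.93 and 8.50 at 9 h and 9.50 and 9.47 at 18 h. Its level was even apart from the late sugar arrays, and it was 1.68-fold lower in hydrolysate (log2 -0.75, SE 0.20, limma adjusted p = 0.0108), a call that ended when either first replicate of 18 h was left out (0.0808 for the hydrolysate one). The other 7 G1 genes were not called. CLN3 differed by 0.64 (limma adjusted p = 0.16), FAR1 by 0.57 (0.0609), CLN2 by 0.51, PCL2 by 0.29, SWI4 by 0.06, SWI6 by -0.05 and PCL1 by -0.72.

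Among the S phase genes, MCM5 and CDC45 of the helicase, the clamp gene POL30 and the polymerase and primase genes POL1, POL2, POL12 and PRI2 were higher in hydrolysate. MCM5, one of the 6 helicase core genes, read 9.04 and 8.74 at 0 h, 10.31 and 10.36 at 9 h and 10.15 and 9.73 at 18 h of hydrolysate. In sugar MCM5 read 10.24 and 10.08 at 9 h and 7.39 and 7.61 at 18 h. The late sugar arrays lay below the start, and the late hydrolysate arrays close to the 9 h level. MCM5 was 5.42-fold higher in hydrolysate (log2 2.44, SE 0.18, limma adjusted p = 5.4e-05). It lies on chromosome XII at 691555 to 693882, plus strand (YLR274W). Of the other helicase core genes, MCM7 was 1.63-fold lower in hydrolysate (log2 -0.70, limma adjusted p = 0.0133), and MCM2 (0.33), MCM3 (-0.31), MCM4 (0.16) and MCM6 (-0.04) were not called.

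CDC45, on chromosome XII at 343989 to 345941, minus strand (YLR103C), was 3.76-fold higher in hydrolysate (log2 1.91, SE 0.19, limma adjusted p = 0.000126). POL12, the regulatory subunit of polymerase alpha, read 8.06 and 8.33 at 0 h, 9.54 and 9.84 at 9 h and 9.58 and 8.89 at 18 h of hydrolysate. In sugar POL12 read 10.24 and 10.15 at 9 h and 7.87 and 8.15 at 18 h. Late sugar arrays were back at the start level, and both late hydrolysate arrays were above it. Hydrolysate was higher by 2.34-fold for POL12 (log2 1.22, SE 0.23, limma adjusted p = 0.00214), by 2.02-fold for POL1 (log2 1.01, SE 0.25, 0.00697), by 1.98-fold for PRI2 (log2 0.99, SE 0.19, 0.00209) and by 1.38-fold for POL2, the catalytic subunit of polymerase epsilon (log2 0.47, SE 0.16, 0.0295). POL30 was 2.12-fold higher (log2 1.08, SE 0.34, limma adjusted p = 0.022), with the late hydrolysate arrays 1.08 apart. Without hydrolysate replicate 1 at 18 h the POL30 difference was 0.54 and not called (0.145), that of POL2 was 0.30 (0.197) and that of POL1 was 0.72 (0.0532).

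The remaining S phase genes were not called. CLB5 differed by -0.22 (limma adjusted p = 0.246), CLB6 by -0.35, CDC6, which loads the helicase, by 0.49 (0.0872) and PRI1 by -0.27. Sorted by the phase in which their own transcription is known to peak, 6 of 13 late G1 genes were higher and 1 was lower (median 0.47), 1 of 12 genes of the mitosis to G1 transition was higher and 3 were lower (median 0.11), and 3 of 5 genes of the CLB2 cluster were lower (median -1.26). Over all genes 31.2% were higher and 30.8% lower.

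Among the G2/M genes, CLB2, CDC5, SWI5, CLB3, FKH2 and FKH1 were lower in hydrolysate. CLB2 was 3.83-fold lower (log2 -1.94, SE 0.24, limma adjusted p = 0.000275), with both late hydrolysate arrays below and both late sugar arrays near or above the 9 h values. CDC5, the polo kinase of mitosis and its exit, read 9.46 and 9.50 at 0 h, 10.84 and 11.01 at 9 h and 9.48 and 9.53 at 18 h of hydrolysate. In sugar CDC5 read 10.99 and 10.76 at 9 h and 11.19 and 10.71 at 18 h. Late hydrolysate arrays were back at the start level, while the sugar arrays stayed at the 9 h level. CDC5 was 2.73-fold lower in hydrolysate (log2 -1.45, SE 0.18, limma adjusted p = 0.00026).

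SWI5 had the same course. It read 7.13 and 7.52 at 0 h, 8.89 and 8.79 at 9 h and 7.30 and 7.33 at 18 h of hydrolysate. In sugar SWI5 read 8.96 and 8.87 at 9 h and 8.87 and 8.29 at 18 h. Its difference was 2.40-fold lower in hydrolysate (log2 -1.26, SE 0.21, limma adjusted p = 0.000962). CLB3, a mitotic cyclin gene, read 9.58 and 9.03 at 0 h, 9.53 and 9.89 at 9 h and 9.02 and 9.00 at 18 h of hydrolysate. In sugar CLB3 read 10.29 and 10.17 at 9 h and 10.09 and 10.01 at 18 h. All 4 sugar arrays lay above all hydrolysate arrays, and CLB3 was 2.05-fold lower in hydrolysate at 18 h (log2 -1.04, SE 0.20, limma adjusted p = 0.00204).

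FKH2, whose product drives the CLB2 cluster, read 9.02 and 8.76 at 0 h, 8.89 and 9.14 at 9 h and 9.14 and 9.65 at 18 h of hydrolysate. In sugar FKH2 read 9.50 and 9.56 at 9 h and 10.54 and 10.29 at 18 h. The late sugar arrays were the highest of the 10, and FKH2 was 2.02-fold lower in hydrolysate (log2 -1.02, SE 0.20, limma adjusted p = 0.00238). Its paralogue FKH1 read 6.78 and 6.51 at 0 h, 8.38 and 8.53 at 9 h and 7.88 and 7.30 at 18 h of hydrolysate. In sugar FKH1 read 8.79 and 9.05 at 9 h and 8.43 and 8.01 at 18 h. FKH1 was 1.55-fold lower in hydrolysate (log2 -0.63, SE 0.23, limma adjusted p = 0.0381), and without hydrolysate replicate 2 at 18 h the difference was -0.34 (0.253). The other G2/M genes CLB1 (-0.23), CLB4 (-0.33) and CDC20 (-0.73, limma adjusted p = 0.143) were not called, and the 2 late hydrolysate arrays of CDC20 lay 1.52 apart.

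CDC28 was 2.52-fold higher in hydrolysate at 18 h (log2 1.33, SE 0.22, limma adjusted p = 0.00107). Leaving out 1 array also ended the 18 h call of MCM7 (without hydrolysate replicate 2, 0.0965), and the count of called genes then ran from 14 to 22. The 3′ minus 5′ difference of the control genes was 1.23 at 18 h of hydrolysate and 0.599 at 18 h of sugar. With a trend on gene length removed from each array, the medians were -0.13 for G1, 0.63 for S and -0.69 for G2/M genes. The calls of MBP1, FKH1, MCM7 and POL30 then ended, other genes became called, and the count stayed at 20.

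**Figure D3:**
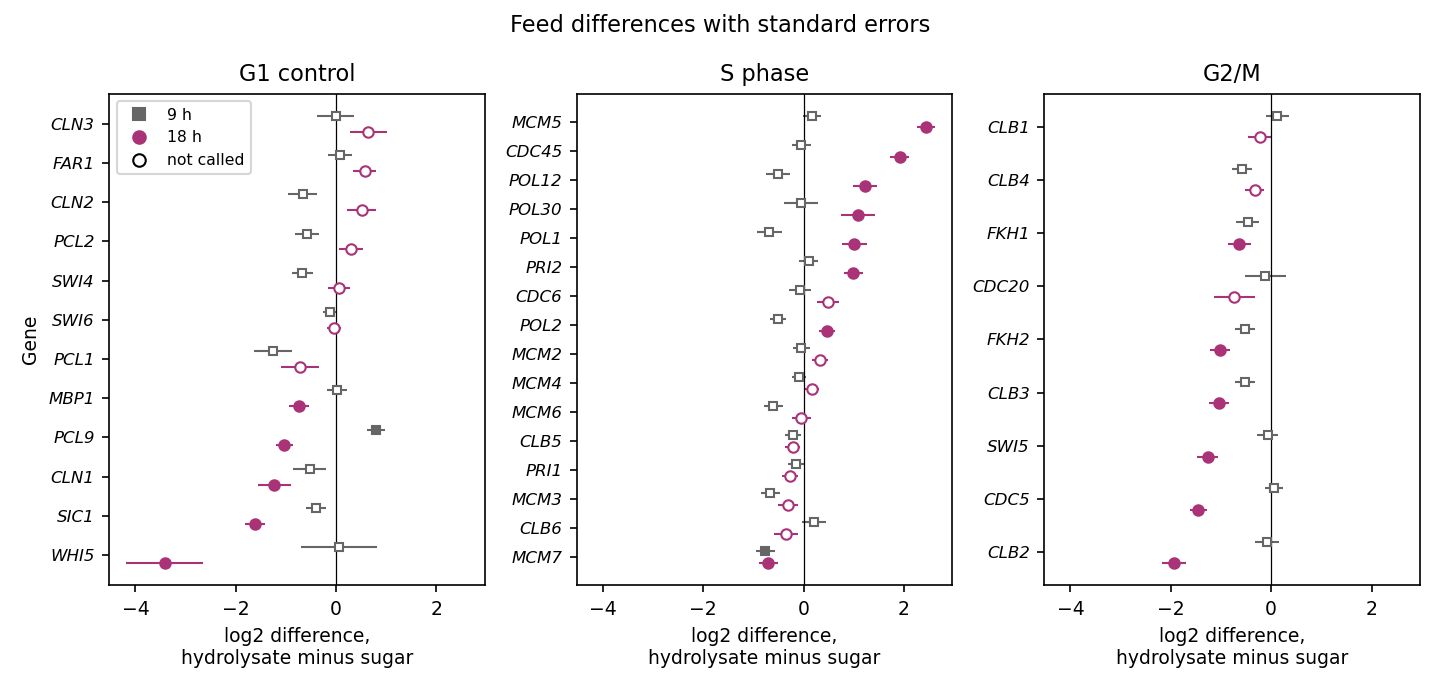
Log2 difference of hydrolysate minus sugar for each gene at 9 h (grey squares) and 18 h (purple circles), with SE bars and filled symbols for called genes, in panels by cycle phase. At 18 h WHI5 (-3.42) and MCM5 (2.44) mark the ends, and 6 of 9 G2/M genes are called below 0.

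Within an array, the G2/M genes could be set against the S phase genes as the difference of their median levels, each gene centred on its own mean. At 18 h that difference was -0.43 and -0.11 in hydrolysate and 1.31 and 1.27 in sugar. The 9 h arrays gave -0.13 and -0.23 in hydrolysate and -0.35 and -0.38 in sugar, and at the start -0.26 and -0.05. The 2 late sugar arrays thus stood alone, with the S phase median at -0.72 and -0.93 and the G2/M median at 0.60 and 0.35. In late hydrolysate both medians were low, at -0.21 and -0.54 for S and -0.64 and -0.66 for G2/M genes.

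**Figure D4:**
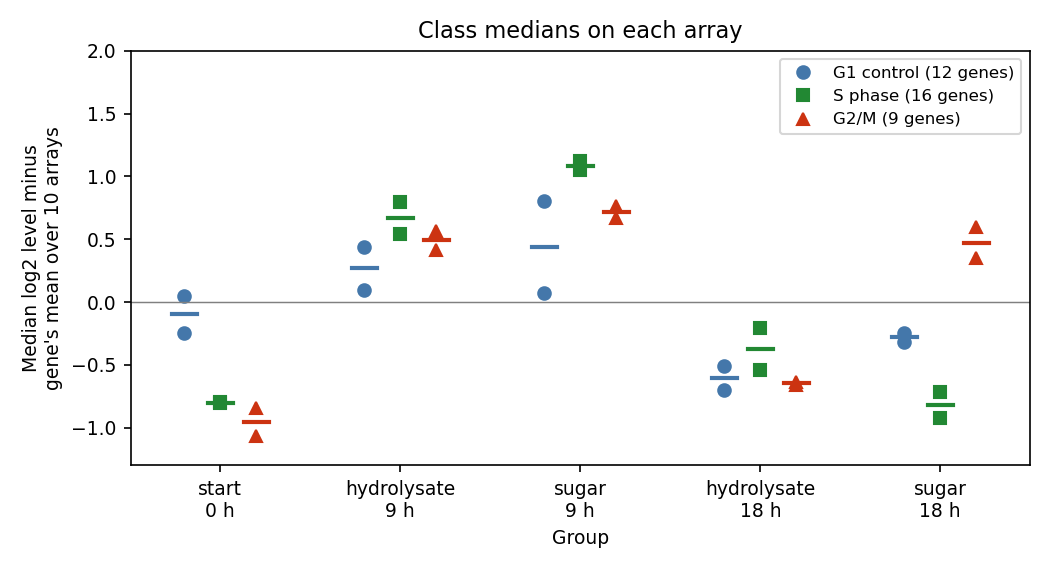
Median log2 level of the G1, S and G2/M genes on each array (points), each gene centred on its mean over the 10 arrays, with a bar at the mean of the 2 arrays of a group. At 18 h of sugar the S phase median is -0.72 and -0.93 while the G2/M median is 0.60 and 0.35, and no other group shows such a split.

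The feed difference changed between 9 h and 18 h in 13 of the 38 genes, where 27.4% of all genes were called, 14.3% toward higher and 13.1% toward lower in hydrolysate. The same test compares the change from 9 h to 18 h between the feeds. MCM5 (2.27, SE 0.26, limma adjusted p = 0.00202), CDC45 (1.96, SE 0.26, 0.00287), POL12 (1.73), POL1 (1.69), CDC28 (1.45), POL2 (0.98) and PRI2 (0.89) shifted toward hydrolysate. WHI5 (-3.47, SE 1.07, limma adjusted p = 0.0435), CLB2 (-1.86, SE 0.34, 0.0079), PCL9 (-1.83, SE 0.24, 0.00286), CDC5 (-1.50), SIC1 (-1.21) and SWI5 (-1.19) shifted toward sugar. By phase these were 6 S, 3 G2/M and 3 G1 genes and CDC28, with medians of 0.56 for S, -0.52 for G2/M and 0.28 for G1 genes, beside -0.05 over all genes. Without 1 array the calls of WHI5 (limma adjusted p up to 0.112, with a difference between -4.87 and -2.07), PRI2 (up to 0.135), SIC1, SWI5, POL2 and CDC28 ended in at least 1 setting. The count was 7 without sugar replicate 2 at 9 h and 8 without hydrolysate replicate 1 or sugar replicate 1 at 18 h.

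Set against the start, the median difference of the 38 genes was smaller at 18 h than at 9 h in both feeds. In hydrolysate 13 genes were higher and 6 lower, where 55.4% of all genes were called, 33.2% higher and 22.2% lower. The share of these genes higher in hydrolysate is near that of all genes, and the share called in all is not above the background. In sugar 19 were higher and 10 lower, where 66.5% of all genes were called, 36.8% higher and 29.7% lower. The medians of the 38 genes were 0.39 in hydrolysate and 0.49 in sugar, beside 0.10 and 0.08 over all genes. The mitotic cyclin genes CLB1 (2.70 in hydrolysate and 2.93 in sugar) and CLB2 (1.45 and 3.39) and the helicase gene MCM6 (1.71 and 1.75) were above the start in both feeds. All 9 G2/M genes were above the start in sugar (median 1.47) and 4 of 9 in hydrolysate (median 0.54). Of the S phase genes 9 were higher and 3 lower in hydrolysate, and 6 were higher and 6 lower in sugar. WHI5 was 4.67 above the start in sugar. Below the start in sugar were PRI2 (-2.19), CDC28 (-1.91), POL30 (-1.57), POL1 (-1.53), MCM5 (-1.39), POL2 (-1.08), CDC45 (-1.03), SWI6 (-0.95), PCL2 (-0.80) and PCL9 (-0.46). Below the start in hydrolysate were PCL9 (-1.50), PRI2 (-1.20), SWI6 (-0.999), SIC1 (-0.82), CLB6 (-0.72) and POL2 (-0.61). MCM5 and CDC45 were thus above the start in hydrolysate (1.05 and 0.88) and below it in sugar. PCL1 was at least 1.97-fold higher at 18 h of sugar than at the start. Without 1 array the calls of CLB5, CLB6, FKH1, POL2 and SIC1 ended in hydrolysate and those of CDC20, CLB3, CLB5, MBP1, PCL2, PCL9 and SIC1 in sugar. With spike-in scaling CLB6, SIC1 and POL2 turned to 0.21, 0.11 and 0.32 in hydrolysate, and PCL2, PCL9, SWI6, CDC45 and POL2 turned to 0.36, 0.70, 0.21, 0.13 and 0.08 in sugar.

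The biological replicates agreed closely for most of these genes. The median gap between the 2 arrays of a group was 0.256 over 190 gene and group pairs, and 7 pairs were 1 log2 unit or more apart. Besides WHI5 at 9 h of sugar these were CDC20 (1.52) and POL30 (1.08) at 18 h of hydrolysate, PCL1 (1.30) and CLN1 (1.01) at 18 h of sugar, and WHI5 (1.26) and CLN3 (1.06) at the start.

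Of the B-type cyclin genes, 4 lie in neighbouring pairs whose 3′ ends face each other, with no RefSeq gene in between, and the array reads 3′ ends. CLB1 (YGR108W, chromosome VII 703636 to 705051, plus strand) and CLB6 (YGR109C, 705359 to 706501, minus strand) are 307 bp apart. CLB2 (YPR119W, chromosome XVI 771653 to 773128, plus strand) and CLB5 (YPR120C, 773875 to 775182, minus strand) are 746 bp apart. From 9 h to 18 h CLB1 fell in hydrolysate (-1.01) and sugar (-0.66), and CLB6 likewise (-3.32 and -2.76). At 18 h CLB2 was lower in hydrolysate than in sugar (-1.94), and CLB5 was not called (-0.22).

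Other genes of the same processes were counted from 6 lists, which were chosen with earlier results of these data known. Their counts are therefore not independent of these data. At 18 h the background is 31.2% of all genes higher and 30.8% lower, 61.9% in all. Of 39 origin and replication fork genes, 17 were higher in hydrolysate than in sugar and 3 were lower (median 0.44), among them DPB3 (2.53), a subunit of polymerase epsilon, and PSF1 (1.71) of the GINS complex, with the clamp loader gene RFC1 (-0.96) and the origin recognition gene ORC2 (-0.68) lower. The share called in either direction, 20 of 39, is not above the background. Cohesion genes, which hold sister chromatids together, were higher in 6 of 8 cases and lower in none (median 1.11), led by ECO1 (2.61), the cohesin acetyltransferase gene, and SMC3 (2.48), a ring subunit gene. ECO1 read 4.86 and 4.81 at 18 h of sugar, just above the background of 4.80 and 4.78 on those arrays. The size of its difference is therefore limited by background. Of 38 further G2/M and anaphase genes, 22 were lower and 4 higher (median -0.68). Subunit genes of the anaphase-promoting complex went both ways, with APC2 at -1.89, APC11 at 2.17 and APC5 at 1.17.

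Daughter separation genes, which act on the septum between mother and bud or specify the daughter cell, were lower in hydrolysate in 9 of 10 cases, beside 30.8% of all genes, and higher in none (median -1.86). They included CTS1 (-2.70), the chitinase that frees the daughter cell, and ASH1 (-2.22), a repressor that collects in daughters. For the change of the feed difference between times 8 of these 10 were called lower, beside 13.1% of all genes (median -1.79), and 5 to 8 when 1 array was left out. Of 16 other genes of the G1 to S decision, 7 were lower and none higher (median -0.25), fewer called in all than the 61.9% of all genes. They were led by NRM1 (-1.45), a corepressor of MBF genes, and WHI3 (-1.43), which binds CLN3 message. The 9 spindle checkpoint genes were split, with MAD2 (1.31) and MAD3 (0.94) higher and BUB3 (-1.10) and BIR1 (-0.47) lower among 3 called in each direction, near the background.

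At 9 h the same lists held few calls. Lower in hydrolysate were HCM1 (-1.60), a forkhead gene of late G1, PDS1 (-1.08), the securin gene, MND2 (-0.59), an anaphase-promoting complex gene, and IPL1 (-0.74), the Aurora kinase gene. Higher were the origin recognition gene ORC3 (0.86), the clamp loader gene RFC2 (0.80), APC5 (0.73) and MAD2 (0.84). Each of these 9 h calls ended when some single array was left out. At 9 h 4 of 39 origin and fork genes were called higher and none lower, beside 5.77% and 3.91% of all genes. That count was 0 without hydrolysate replicate 1 or either sugar replicate of 9 h, or without either sugar replicate of 18 h, and 1 without either hydrolysate replicate of 18 h. None of the cohesion and daughter separation genes was called.

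The authors' deposited table called none of the 38 genes between the feeds at 9 h and 2 at the later time, MCM5 (adjusted p = 0.00218) and CDC45 (adjusted p = 0.0246), both higher in hydrolysate, and left 36 uncalled. The limma fit of all arrays called 20 from the same log2 differences, but the 2 tests differ. The authors' test score is 0 for small differences, and their p was adjusted over both comparisons together. With a 2-fold minimum the limma fit called 15 of the 38 at 18 h, where it called 1769 of all 5654 genes. No count of the authors' calls over all genes is given here.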

How the data were processed

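Total RNA of S. cerevisiae TMB3500 was measured on 10 single-colour Affymetrix 3′ arrays, 2 biological replicates in each of 5 groups, as the labels give them. The log2 values deposited are RMA intensities. The submitters' processing notes list R 4.2.1, limma 3.52.4 and affy 1.74.0. The authors' deposited table adds, for both feed comparisons, log2 differences, p-values and a score of the call (1, -1 or 0). Its headers give 17 h where the labels give 18 h, and 10 of its per-array columns were not used. The 38 genes were taken by gene name, as the highest probe set of each. All 38 had the same coordinates in RefSeq R64. Of 10928 probe sets, 5702 S. cerevisiae ones carried 1 gene name and gave 5654 genes.

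Differences were tested with lmFit and eBayes of limma 3.58.1 (R 4.3.3), fitted once to all arrays (5 residual, 3.49 prior degrees of freedom), adjusted by Benjamini and Hochberg over 5654 genes and called under 0.05. The scripts were tested on simulated data. The number of arrays limits the precision. The 38 genes and the lists were chosen with earlier results of these data known. Values on every array are given for the genes of each phase called between the feeds, at most 6 a phase by size at 18 h, and for CLN3, WHI5, SIC1, CDC28, CLB2, CLB5 and POL30. Up to 2 called genes in each direction were named per list, of which 1 is not reported here. Promoter and protein sequences were not used here. For PCL1, "at least" sets the brighter group against the lowest signal above background.

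Results were recomputed with each array left out, only the arrays compared, a 2-fold minimum, probe sets averaged, arrays centred on their median or quantile normalized again, dim genes removed, another prior (trended and robust), replicate numbers as a block or, with the feed, as a random block, removal of a gene length trend and, chosen after seeing the data, scaling to the spike-ins.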

Additional observations from a re-analysis of the deposited data

Results flagged for a closer look

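The feed difference at 18 h differed from that at 9 h, in the limma test of the difference itself, for the following genes. Of the 38 genes it was positive (hydrolysate minus sugar moved up) for MCM5 (2.27), CDC45 (1.96), POL12 (1.73), POL1 (1.69), CDC28 (1.45), POL2 (0.98) and PRI2 (0.89). It was negative for WHI5 (-3.47), CLB2 (-1.86), PCL9 (-1.83), CDC5 (-1.50), SIC1 (-1.21) and SWI5 (-1.19). Of the genes named from the lists it was positive for ECO1 (2.85, near background at 18 h of sugar), SMC3 (2.05), DPB3 (1.93), APC11 (1.50), IPL1 (1.26) and PSF1 (1.14). It was negative for CTS1 (-2.30), ASH1 (-1.74), APC2 (-1.59), WHI3 (-0.85), BUB3 (-0.82) and RFC1 (-0.72). PCL9 and IPL1 were called in opposite directions at 9 h and in the change between times. The change holds the 9 h difference with its sign turned, so these opposite directions are partly built in.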

How the results depend on the processing

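With 2 arrays a group, single arrays decide many calls. At 9 h between the feeds 2 genes were called, but 0 with a 2-fold minimum, with spike-in scaling or with only the arrays compared, 1 with a replicate block, 4 after quantile normalization again, and 0 to 8 when an array was left out. For the change between times 13 became 7 to 15 without 1 array. Against the start, the 18 h hydrolysate count was 19, 9 with a 2-fold minimum and 17 to 22 without 1 array. Leaving out 1 array gave 14 to 22 at 18 h between the feeds, 25 to 30 (hydrolysate 9 h), 30 to 33 (sugar 9 h) and 23 to 29 (sugar 18 h) against the start, and 19 to 26 (hydrolysate) and 24 to 31 (sugar) for 18 h against 9 h. Spike-in scaling reversed calls against the start: SWI6 (0.45) and FAR1 (0.61) at 9 h of hydrolysate, SWI6 (0.57), FAR1 (0.53) and PCL9 (0.031) at 9 h of sugar, CLB6 (0.21), SIC1 (0.11) and POL2 (0.32) at 18 h of hydrolysate, and PCL2 (0.36), PCL9 (0.70), SWI6 (0.21), CDC45 (0.13) and POL2 (0.083) at 18 h of sugar. Against the start at 18 h, quantile normalization again reversed CLB5 in hydrolysate (-0.0037), and removing the length trend reversed MBP1 in sugar (-0.091). No call between the feeds or between 9 h and 18 h reversed. Spike-in scaling shifted the median of all genes at 18 h between the feeds to -0.22 and ended the POL2 (0.440) and POL30 (0.0534) calls. The causes were not tested. The number called over all genes also changed with the setting and when an array was left out. The changes in the counts above are therefore not read as a trait of the set. Between the feeds at 9 h, 547 of 5654 genes were called in the main fit. A 2-fold minimum gave 185, spike-in scaling 226, only the arrays compared 23, a replicate block 337 and quantile normalization again 718. Of 540 medians of gene groups compared, 61 moved by more than the spread and 7 changed sign. The correlations of the replicate differences between groups were -0.203 to 0.130, which cannot show whether equal replicate numbers mark the same culture. With a replicate block 20 genes were called at 18 h between the feeds. For the change between times 11 were then called, without WHI5 (0.0571) and PRI2 (0.0559). Signal over background limits PCL1, which was below it at the start, and ECO1 of the lists, which was just above it at 18 h of sugar.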
